A study of Mus musculus with 4 samples.

Results

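Galanin and 9 other neuropeptides were followed through the genes of their precursors: Gal (galanin), Cck (cholecystokinin), Sst (somatostatin), Cort (cortistatin), Tac1 (substance P and neurokinin A), Tac2 (neurokinin B), Adcyap1 (PACAP), Vip (vasoactive intestinal peptide), Crh (corticotropin-releasing hormone) and Trh (thyrotropin-releasing hormone). Every probeset whose only gene symbol in the platform annotation was one of these 10 was taken, which gave 12 of the 45101 probesets on the array. The study measured hippocampal RNA of male DBA/2J mice, an inbred strain, labelled as 8 to 10 weeks old. The fluoxetine group drank water with fluoxetine, a serotonin reuptake inhibitor used as an antidepressant, for 21 days at a calculated 18 mg/kg per day, and the control group drank untreated water, a dose of 0. Each group of 12 mice was combined into 2 RNA pools of 6 mice, and each pool was put on its own Affymetrix Mouse Genome 430 2.0 array. A pool averages its mice, so the spread between pools says nothing of single animals, and n below is 2 pools per group. The comparison asks which of these transcripts differ after chronic fluoxetine.

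Neuropeptides are cut from larger precursor proteins, stored in dense-core vesicles and released mainly during strong firing, and they act on G protein-coupled receptors. In the hippocampus of rodents somatostatin, VIP and cholecystokinin are classical products of separate classes of GABAergic interneurons, and cholecystokinin is also made by pyramidal cells. Galanin is best known there from incoming noradrenergic fibres and mostly lowers transmitter release.

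Values are intensities that the authors normalized with GCRMA. These are comparable between arrays for a given probeset but not between probesets. A probeset was tested if it reached 100, the submitters' own minimum, on at least 2 of the 4 arrays, and it passed if its Benjamini-Hochberg adjusted p by limma, taken over all 16938 tested probesets, was under 0.05. Array medians lay between 22.6 and 23.3, and 16651 to 16905 probesets per array reached 100. Pools of a group differed with an SD of log2 ratios of 0.20 in fluoxetine and 0.19 in control arrays. The 18 probesets of the hybridisation spike-ins, RNAs that enter every sample at a fixed amount, all read higher on the 2 fluoxetine arrays than on the 2 control arrays, without overlap and by a median of 0.36 on the log2 scale (0.17 to 0.55). Tested probesets had a median of -0.04. The labels give no order of hybridisation or scanning, and the part of such a batch in the results was not tested. For 2 arrays against 2 the smallest p of an exact two-sided permutation test is 0.333, and calls therefore rest on limma.

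Of the 10 precursor genes, Gal rose in fluoxetine pools, 5 were measured on both sides without passing, and 4 were too dim to be tested. Of the 6 tested probesets, 1 passed, Gal, where 1.72% of all tested probesets passed in either direction and 1.03% were higher. Gal was also the only member with a measured difference of at least 2-fold, which 0.791% of tested probesets had. The groups did not overlap for 5 of the 6, higher in fluoxetine pools for Gal, Crh and Tac1 and lower for Cck and Sst. Such separation held for 56% of all tested probesets, 21.9% higher and 34.2% lower, so by itself it says little about these genes. Gal met the filter only through its 2 fluoxetine arrays.

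**Figure D1:**
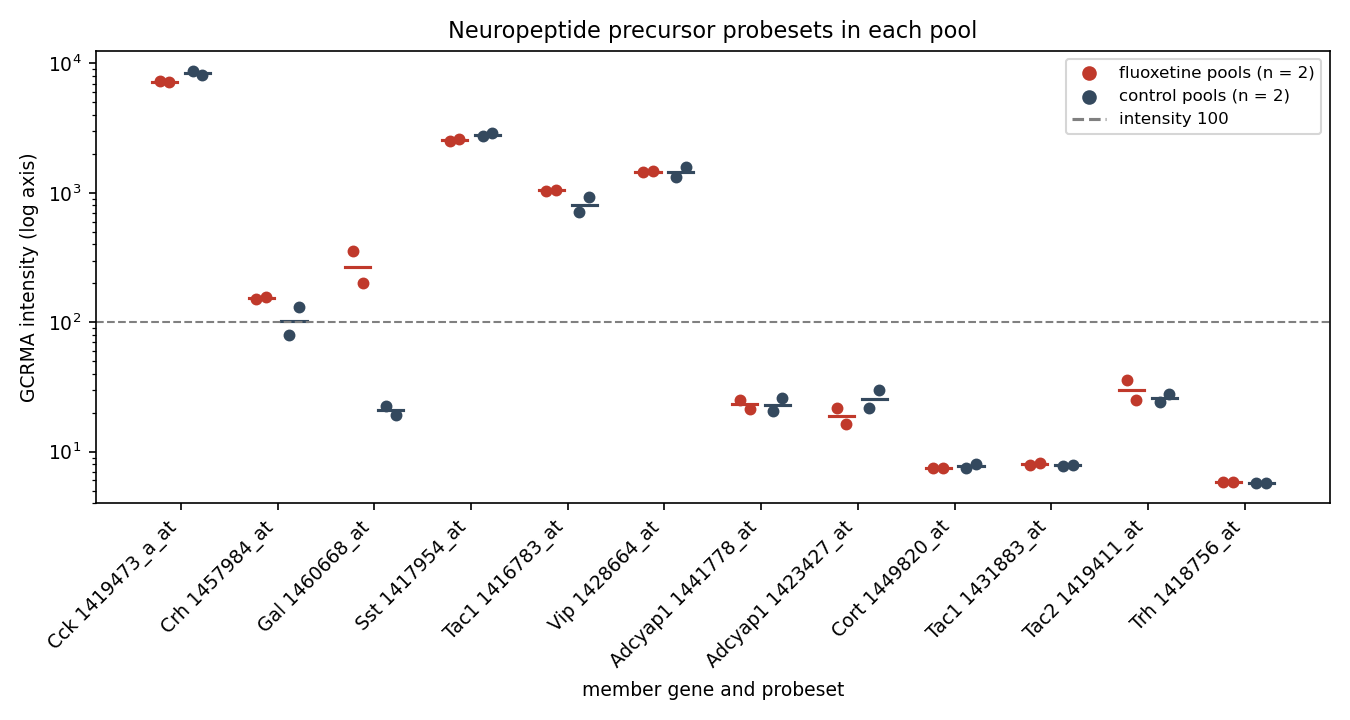
GCRMA intensity (log axis) of the 12 probesets of the 10 precursor genes in each pool, fluoxetine pools in red and control pools in dark grey, with a bar at each group's geometric mean and a dashed line at 100. Gal crosses the line between the groups, Crh lies near it, and 6 probesets lie under it in every pool.

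Gal had intensities of 353 and 201 in fluoxetine pools 1 and 2, against 22.5 and 19.4 in control pools 1 and 2. Both fluoxetine pools lay above the minimum of 100 and both control pools far under it. The fold of fluoxetine over control is therefore given as a lower bound, at least 2.67. This is the geometric mean of 267 in fluoxetine pools over 100, while the control mean was 20.9. On the measured values the log2 fold change was 3.68 ± 0.28 (SE, 95% interval 2.95 to 4.40, adjusted p = 0.0262 by limma). The 2 fluoxetine pools stood 1.75-fold apart, pool 1 being the higher, and the control pools 1.16-fold. Of all probesets, 116 were, like Gal, at 100 or more on both fluoxetine arrays and under 100 on both control arrays, 31 of them with a call, and 169 were placed the other way round. With any array left out limma passed no probeset, and the adjusted p of Gal was 0.127 without fluoxetine pool 1, 0.0667 without fluoxetine pool 2, 0.161 without control pool 1 and 0.162 without control pool 2. The call also ended with values under 100 raised to 100 (log2 1.41, adjusted p = 0.0801), with no intensity filter (adjusted p = 0.178) and with the pool number as a block (adjusted p = 0.0739).

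The upstream sequence of Gal is shown because this was the precursor gene that passed. The 250 bases before its RefSeq start, at chr19:3414545-3414794 on the minus strand of GRCm38.p6, read 5' to 3':

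Gal: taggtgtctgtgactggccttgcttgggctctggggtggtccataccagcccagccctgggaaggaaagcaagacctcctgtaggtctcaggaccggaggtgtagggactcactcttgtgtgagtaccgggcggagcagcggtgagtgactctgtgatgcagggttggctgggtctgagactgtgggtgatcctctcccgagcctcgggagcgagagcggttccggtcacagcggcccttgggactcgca

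Searched on both strands, this window held no TGACGTCA, the cAMP response element (CRE) at which CREB binds, no TGACG, the core of that element, no TGANTCA, the AP-1 site of Fos and Jun proteins, and no TATAAA, the TATA box, so no letter is in capitals. Of the 32851 RefSeq windows of 250 upstream bases, 1.55% held TGACGTCA, 17.8% TGACG, which every TGACGTCA contains, 6.75% TGANTCA and 12.4% TATAAA.

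The genes with the array profile nearest to that of Gal were Penk, Inhba, Gfap, Nptx2 and S100a6. Nearness was the Euclidean distance between log2 profiles over the 4 arrays, each centred on its control mean. The search covered the 9030 tested genes less the members and those with clone or predicted-gene names. The distance from Gal was 0.51 for Penk, the enkephalin precursor, 1.27 for the activin subunit gene Inhba, 1.31 for Gfap, the astrocyte filament, 1.48 for the neuronal pentraxin gene Nptx2 and 2.08 for the calcium-binding protein gene S100a6. With 2 arrays per group such a profile holds little more than the size of the group difference, so these are the genes with a like measured rise, and for Gal, Inhba and Nptx2 it rests on control values under 100.

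**Figure D2:**
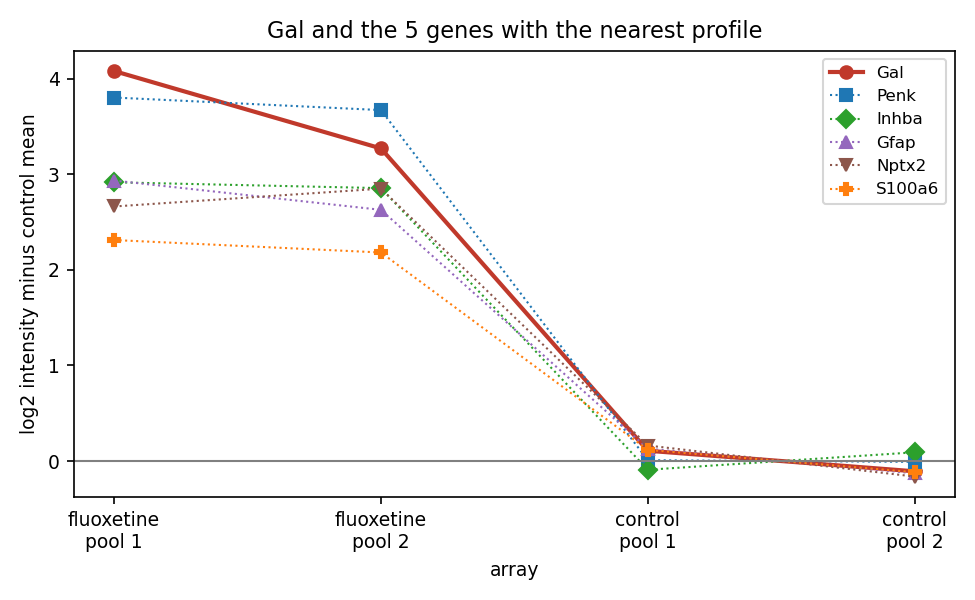
Log2 intensity of Gal (solid red line) and of the 5 genes with the nearest profiles (dotted lines) on the 4 arrays, each minus its mean over the control pools. Gal stands at 3.68 on average in fluoxetine pools and differs more between the 2 fluoxetine pools than the other 5 genes do; control values of Gal, Inhba and Nptx2 were under 100.

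Cck and Sst, both abundant interneuron peptides, were lower in the fluoxetine pools by small amounts that did not pass. Cck had intensities of 7288 and 7212 in fluoxetine pools, against 8696 and 8163 in control pools. The log2 fold change was -0.22 ± 0.07 (95% interval -0.40 to -0.03, adjusted p = 0.177), and both fluoxetine pools lay under both control pools. Sst had 2535 and 2628 in fluoxetine pools, against 2738 and 2878 in control pools. It was at log2 -0.12 ± 0.07 (95% interval -0.30 to 0.06, adjusted p = 0.372), with pool ranges that did not meet. The Cck probeset is of the type that can match several transcripts of its gene.

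Vip, a marker of interneurons that mostly contact other interneurons, lay at nearly the same level in both groups. Its intensities were 1445 and 1480 in fluoxetine pools, against 1338 and 1594 in control pools. The fluoxetine pools fell between the control pools, and the log2 fold change was 0.00 ± 0.10, with a 95% interval of -0.27 to 0.27 (adjusted p = 0.994).

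Tac1 and Crh were higher in both fluoxetine pools than in either control pool without passing. Tac1 had intensities of 1028 and 1062 in fluoxetine pools, against 711 and 927 in control pools. The fluoxetine pools lay 1.03-fold apart and the control pools 1.30-fold, and the log2 fold change was 0.36 ± 0.14 (95% interval -0.0017 to 0.73, adjusted p = 0.223). It was 0.17 without control pool 1 and 0.56 without control pool 2. A second Tac1 probeset was under 100 on every array, at 7.94 and 8.15 in fluoxetine pools and 7.78 and 7.95 in control pools, and gives no fold. Crh, the peptide that starts the hormonal stress response and is also made by hippocampal interneurons, had 151 and 158 in fluoxetine pools, against 80.2 and 131 in control pools. Control pool 1 was the array under 100. The log2 fold change was 0.59 ± 0.24 (95% interval -0.03 to 1.21, adjusted p = 0.235), and it was 0.24 without control pool 1 and 0.94 without control pool 2.

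**Figure D3:**
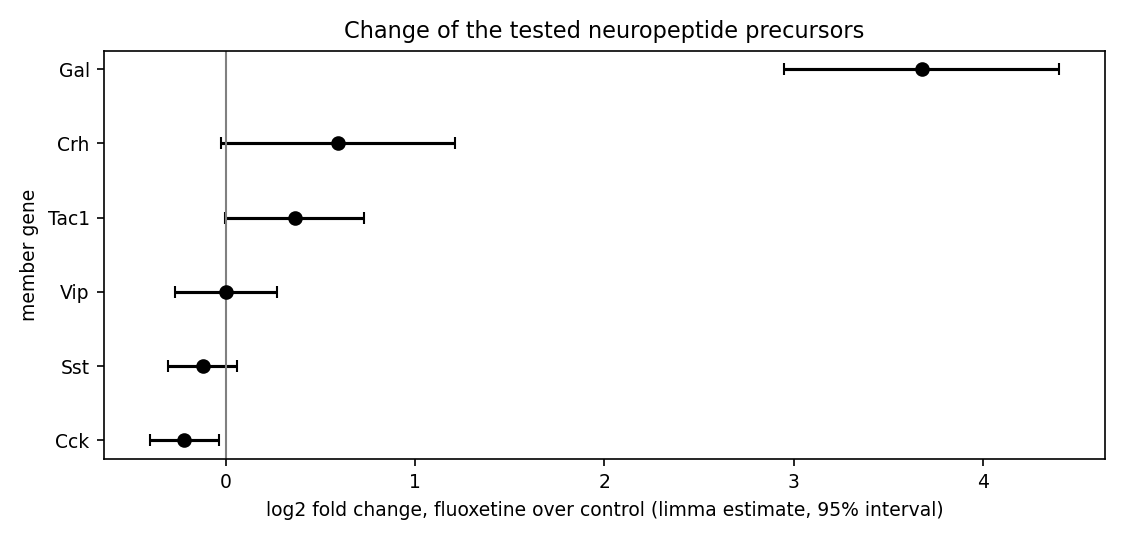
Log2 fold change of the 6 tested precursor genes, fluoxetine over control, as points with limma's 95% interval. Gal stands at 3.68, on measured control values that were under 100, and the other 5 lie between -0.22 and 0.59.

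Tac2, Adcyap1, Cort and Trh were under 100 on every array, at all 5 of their probesets, so no fold is given for them. Tac2 was at 35.5 and 24.9 in fluoxetine pools and 24.4 and 28.0 in control pools. Adcyap1 was at 25.0 and 21.5 in fluoxetine pools and 20.7 and 25.9 in control pools at its first probeset, and at 21.6 and 16.3 in fluoxetine pools and 21.9 and 29.7 in control pools at the other. These ranges overlapped at the first Adcyap1 probeset and at Tac2. Cort, a relative of somatostatin that binds the same receptors, was at 7.52 in both fluoxetine pools and at 7.55 and 7.99 in control pools. Trh was at 5.89 and 5.81 in fluoxetine pools and 5.76 in both control pools. GCRMA draws dim probesets towards a common floor, and whether these transcripts differ was not detectable at this signal.

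On the receptor side, the somatostatin receptor gene Sstr2 rose, and it was the 1 gene of 8 tested that passed, where 1.72% of all tested probesets did. Counted by gene, as the lists are, 118 of the 9030 tested genes rose and 50 fell by limma. The list held 22 genes, the receptors of the 10 peptides with the CRH-binding protein and the TRH-degrading ectoenzyme, and 21 had a probeset. Sstr2, an inhibitory receptor of somatostatin and cortistatin, had intensities of 307 and 255 in fluoxetine pools, against 111 and 126 in control pools. All 4 values were above 100 and the groups lay well apart, with a log2 fold change of 1.25 ± 0.12 (adjusted p = 0.0367). Its adjusted p was 0.134 without fluoxetine pool 1, 0.135 without fluoxetine pool 2, 0.166 without control pool 1 and 0.175 without control pool 2, and 0.107 with the pool number as a block. The other tested somatostatin receptors gave values in the other direction without passing. Sstr4 was at 966 and 884 in fluoxetine pools and 1131 and 1039 in control pools (log2 -0.23 ± 0.09, adjusted p = 0.214). Sstr3 was at 220 and 147 in fluoxetine pools and 235 and 209 in control pools (log2 -0.30 ± 0.21, adjusted p = 0.443), and the difference was -0.0073 without fluoxetine pool 2 and -0.60 without fluoxetine pool 1.

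Sstr2, which had passed, was the only receptor gene whose upstream window was searched. The ligand Sst and the receptor Sstr2 each carried the full CRE upstream, and stretches of 30 bases are shown with the match in capitals. Those of Tac1, Vip and Cck, which held the TGACG core alone, follow, as the next members with a measured level. All are 5' to 3', on the strand of the gene, from GRCm38.p6 by RefSeq: Sst at chr16:23890874-23890903 (minus), Sstr2 at chr11:113619258-113619287 (plus), Tac1 at chr6:7555007-7555036 (plus), Vip at chr10:5639128-5639157 (plus) and Cck at chr9:121495723-121495752 (minus).

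Sst: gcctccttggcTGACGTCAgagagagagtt

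Sstr2: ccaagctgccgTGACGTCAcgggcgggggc

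Tac1: ctctacaggctCGTCAcgcctgagataaat

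Vip: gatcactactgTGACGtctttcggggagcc

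Cck: ctgctggactgCGTCAgcactgggtaaaca

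The match shown began 48 bases before the start for Sst, 58 for Sstr2, 43 for Tac1, 79 for Vip and 47 for Cck. Tac1 held another core match, 197 bases before the start, which is not shown. In Tac1 and Cck the match shown is the core read on the other strand, CGTCA. Of the 10 precursor genes 9 had an upstream window, Crh being the other one. The CRE stood in 1 of the 9, the TGACG core in 7, TGANTCA in 0 and TATAAA in 2. Over all RefSeq windows the shares were 1.55%, 17.8%, 6.75% and 12.4%, in that order. Those shares count windows, while the member counts are of genes with a match in any window, so they are not like for like. The Sst window and both Adcyap1 windows lie inside the RefSeq spans of their genes, which have earlier starts. In the Vip window 25 bases lie inside the span of Vip. These are letter matches, and binding at them was not measured.

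Of the other receptor-side genes, Crhbp, which encodes the CRH-binding protein, had the next largest difference. It was at 669 and 657 in fluoxetine pools, against 423 and 506 in control pools, both fluoxetine pools above both controls (log2 0.52 ± 0.11, adjusted p = 0.0899). Adcyap1r1, the PACAP receptor gene, was at 950 and 909 in fluoxetine pools and 1085 and 1205 in control pools (log2 -0.30 ± 0.08, adjusted p = 0.140). Cckbr, the main cholecystokinin receptor of brain, was at 157 and 163 in fluoxetine pools and 148 and 264 in control pools, a log2 difference of -0.30 ± 0.28 that turned to 0.11 without control pool 2. Trhde, the ectoenzyme that cleaves TRH, was at log2 0.16 ± 0.07 and the TRH receptor gene Trhr at -0.15 ± 0.09, both without passing. The median over the 8 tested genes was -0.19 and over all tested genes -0.03. The galanin receptor genes Galr1 and Galr2 and the tachykinin receptor genes Tacr1 and Tacr2 were under 100 on every array. Tacr3, the neurokinin B receptor, reached 100 on 1 array alone, at 74.9 and 76.9 in fluoxetine pools and 84.8 and 114 in control pools at its brightest probeset.

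**Figure D4:**
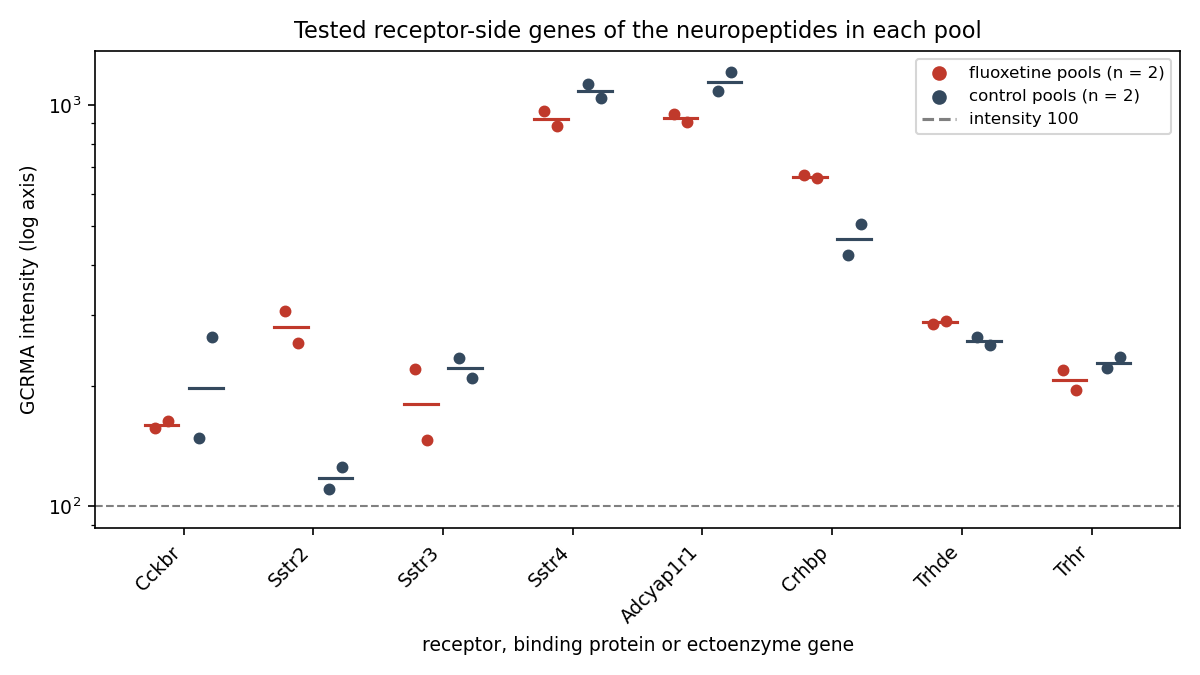
GCRMA intensity (log axis) of the 8 tested receptor, binding protein and ectoenzyme genes in each pool, fluoxetine pools in red and control pools in dark grey, with a bar at each geometric mean and a dashed line at 100. Sstr2 had 307 and 255 in fluoxetine pools and 111 and 126 in control pools, and the groups overlapped for Cckbr and Sstr3.

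Among 44 other peptide precursor genes, 33 had a probeset, 6 were tested, and 2 rose and 0 fell by limma, where 1.03% of all tested probesets rose and 0.685% fell. These were Penk (log2 3.74 ± 0.08, adjusted p = 0.00217) and Npy, neuropeptide Y (log2 2.22 ± 0.10, adjusted p = 0.0172). Grp, the gastrin-releasing peptide precursor, had 2940 and 3468 in fluoxetine pools, against 1578 and 1855 in control pools (log2 0.90 ± 0.13, adjusted p = 0.0536). Pnoc, the nociceptin precursor, had 129 and 162 in fluoxetine pools, against 63.1 and 80.2 in control pools, at least 1.45-fold higher, and did not pass (adjusted p = 0.0682). The list median was 0.96 on measured values and 0.72 with Pnoc at its bound, against 0.18 for the 6 tested precursors described above. The filter keeps a dim gene where it is high, so these medians are a description. The prodynorphin gene Pdyn, Pomc and Cartpt were among the 27 that lay under 100 on every array.

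Of 7 tested peptide-processing genes 0 passed by limma in either direction, with a median of -0.01. With 1.72% of all tested probesets passing, that count says nothing particular to them. The largest differences were those of Pcsk1n, an inhibitor of the prohormone convertase PC1 (log2 -0.28 ± 0.09, adjusted p = 0.185), and Pam, which amidates peptide ends (log2 0.27 ± 0.07, adjusted p = 0.127). Furin and Pcsk1, the gene of PC1 itself, were under 100 on every array and were not tested. Of 6 tested peptidase genes 1 rose, Ecel1, a neuronal membrane protein of the neprilysin family, at 117 and 131 in fluoxetine pools and 30.9 and 34.4 in control pools, at least 1.24-fold higher (adjusted p = 0.0172). Ecel1 met the filter only through its 2 fluoxetine arrays, and the call was lost with values under 100 raised to 100 (adjusted p = 0.132). The median of that list was 0.13, and Ece1, an endothelin-converting enzyme, was at log2 0.37 ± 0.07 without passing (adjusted p = 0.0823).

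Of 17 tested genes of interneurons, the cells that make several of these peptides, 0 passed by limma, 9 were above 0 and 8 below, and the median was 0.00082. With 1.72% of all tested probesets passing, a count of 0 among so few says nothing particular to these genes. The homeobox gene Dlx1 was at log2 -0.42 ± 0.11 (adjusted p = 0.135), Lamp5, of neurogliaform cells, at -0.39 ± 0.13 (adjusted p = 0.179), the calretinin gene Calb2 at 0.34 ± 0.09 (adjusted p = 0.126) and the nitric oxide synthase gene Nos1 at 0.33 ± 0.08 (adjusted p = 0.115). In RNA of whole tissue, fewer cells of a type and less RNA per cell cannot be told apart.

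Of 16 hippocampal excitatory neuron genes 15 were tested, all but Tdo2, and 1 fell, Dsp (log2 -1.79 ± 0.24, adjusted p = 0.0495), a desmosomal gene of dentate granule cells, where 0.685% of all tested probesets were lower. The list went both ways, 7 above 0 and 8 below. C1ql2, also of granule cells, was at log2 1.11 ± 0.17 (adjusted p = 0.0636), Fibcd1, of CA1, at -0.82 ± 0.25 (adjusted p = 0.162) and the calcium buffer gene Calb1 at -0.45 ± 0.08 (adjusted p = 0.0771). A dimmer Calb1 probeset, noted after its values were seen, passed at -1.16 ± 0.14 (adjusted p = 0.0436). Of 13 genes of striatum, hypothalamus, thalamus and amygdala with a probeset, 10 were under 100 on every array, among them Drd2, Hcrt, Pmch, Oxt, Avp and Nkx2-1, and 0 of 3 tested genes passed by limma. Prkcd, of thalamus, was at 174 and 135 in fluoxetine pools and 119 and 91.5 in control pools (log2 0.56 ± 0.18, adjusted p = 0.179), and Tcf7l2, under 100 throughout, was at 95.2 and 90.7 in fluoxetine pools and 76.0 and 59.8 in control pools at its brightest probeset. The summed intensity of that list was 1471 and 1527 in fluoxetine pools and 1442 and 1427 in control pools. Each such sum adds the brightest probeset of every listed gene, so that a few bright probesets carry it. Choroid plexus genes stood far apart between pools of the same group. Their summed intensity was 51680 and 4563 in fluoxetine pools 1 and 2, against 38229 and 2151 in control pools 1 and 2, and 7 of 10 genes were under 100 everywhere. Ttr, transthyretin, was at 51101 and 4429 in fluoxetine pools 1 and 2 and at 37856 and 2002 in control pools 1 and 2. Gal was also higher in pool 1 among fluoxetine pools, by 1.75-fold. Its control pools stood 1.16-fold apart, but both were under 100, so that ratio is of little use. The part of the plexus in the Gal values was not tested.

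Some glial and vascular markers also rose in the fluoxetine pools. Over all tested probesets 1.03% rose and 0.685% fell. Of 8 tested microglia genes 4 rose (C1qa, C1qb, Cd53 and Tyrobp) and 0 fell, with a median of 0.80, and Ly86 was at log2 1.13 ± 0.19 without passing (adjusted p = 0.0692). The summed intensity of the 10 listed was 6999.7 and 6751 in fluoxetine pools against 4186 and 4133 in control pools, Trem2 being under 100 throughout. Of 11 tested astrocyte genes 3 rose (Gfap, Vim and Aqp4) and 0 fell, 8 were above 0 and 3 below, and the median was 0.21. A dimmer Slc1a2 probeset, noted after its values were seen, passed at log2 0.76 ± 0.10 (adjusted p = 0.0494 by limma). The brightest Slc1a2 probeset was at 0.11 and the remaining tested one at 0.0016, both without passing. Fgfr3 lay in the other direction, at 1555 and 1318 in fluoxetine pools and 1896 and 1994 in control pools (log2 -0.44 ± 0.10, adjusted p = 0.110). The astrocyte list summed to 83248 and 84711 in fluoxetine pools against 68911 and 71217 in control pools. Of 6 tested endothelial and mural genes 2 rose (Rgs5 and Abcc9) and 0 fell, with a median of 0.46, and Cldn5 was at log2 0.66 ± 0.11 without passing (adjusted p = 0.0707). That list summed to 4285 and 4149.9 in fluoxetine pools against 3033 and 2945 in control pools, and Cdh5, Kcnj8, Ocln and Pecam1 were under 100. The part of these cells in the rise of Gal and of Sstr2 was not tested.

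**Figure D5:**
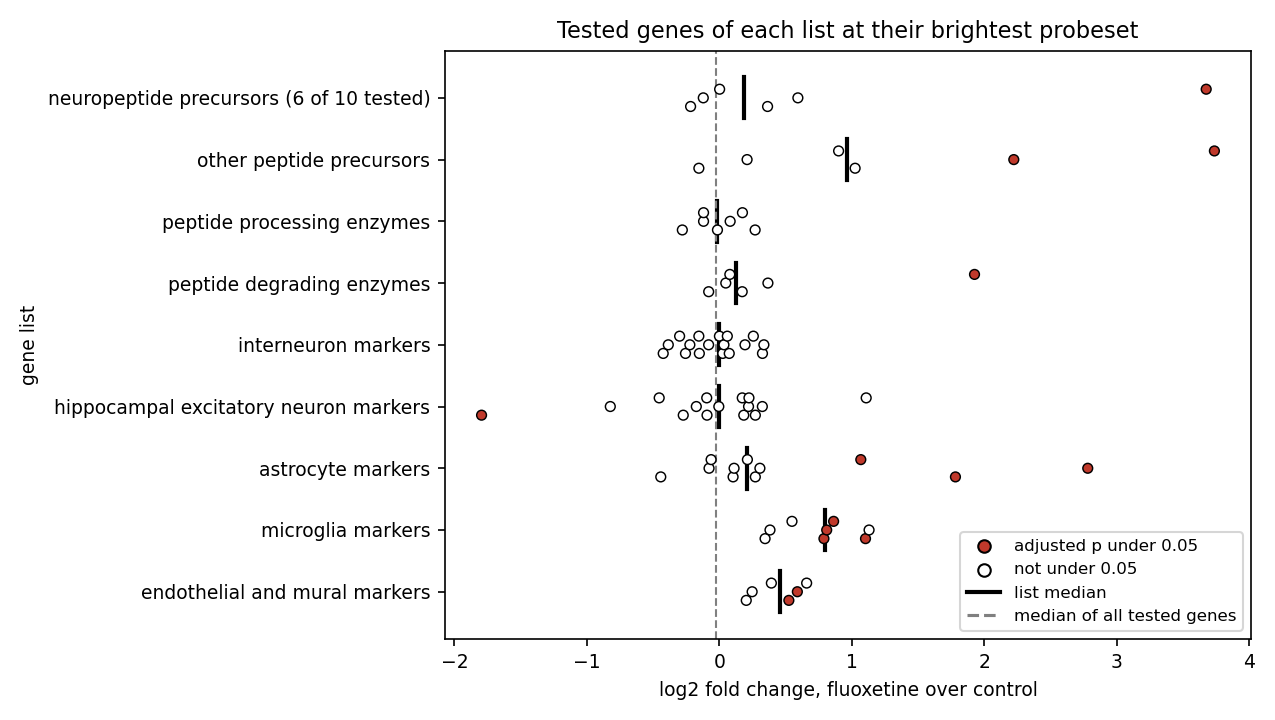
Log2 fold change, fluoxetine over control, of the tested genes of each list at their brightest probeset, filled where the adjusted p was under 0.05, with the list median as a bar and the median of all tested genes (-0.03) as a dashed line. Processing enzymes and interneuron markers have no filled point, and Gal, Penk and Npy are the filled points among peptide precursors.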

How the data were processed

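Hippocampal RNA of 2 fluoxetine and 2 control pools was measured on 1 array each, grouped by sample title. Per the labels' design text, the authors normalized the arrays with GCRMA in ArrayAssist, and the deposited values are linear intensities, 1 for each probeset on each array. Versions: not given in the sources used here. Intensities were taken to log2 with no pseudocount. After removal of 64 Affymetrix control probesets from 45101, the 16938 at 100 or more on at least 2 arrays (37.6% of the rest) were fitted in limma 3.58.1 under R 4.3.3 (default eBayes, no covariate, two-sided, Benjamini-Hochberg over all tested). Group means are geometric. Gene names come from the platform annotation: 34958 probesets had 1 symbol, 932 several and 9211 none; 34754 were found by gene number in the RefSeq gene table and 0 symbols changed. A listed gene was read at its tested probeset with the highest mean. List counts are therefore of genes, while the percentages beside them are of tested probesets. Where a whole group lay under 100, the fold is the brighter mean over 100.

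Named are every member, each listed gene that passed, up to 4 of each list with the largest change, and the 5 genes nearest to Gal; Tcf7l2 and the dim receptor and precursor genes were named after their values were seen. The members and lists were chosen with earlier results of these data known. Upstream sequences are RefSeq's, build GRCm38.p6. Alternatives were other intensity filters, normalizations, a floor, a pseudocount of 32, other eBayes settings, array weights, each array left out, the pool number as a block, and probesets named _x_at, _s_at or _a_at left out. The fit was tested on simulated data. The number of arrays limits precision, and the labels name the pools as biological replicates.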

Additional observations from a re-analysis of the deposited data

Results flagged for a closer look

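The hybridisation spike-ins, which no comparison of genes uses, carried a signal above that of the control arrays. All 18 probesets read higher on the 2 fluoxetine arrays than on the 2 control arrays, by a median of 0.36 on the log2 scale (0.17 to 0.55). The labels give no order of hybridisation or scanning, and the part of this shift in the gene results was not tested.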

How the results depend on the processing

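The 291 probesets that passed became 163 with 100 required on 1 array, 0 with no intensity filter (5396 at an unadjusted p under 0.05), 532 with the trend and robust settings, 193 without the probesets named _x_at, _s_at or _a_at, 9 with the pool number as a block, and 0 with any array left out (2657 to 3515 at an unadjusted p under 0.05). The 1 precursor that passed, Gal, was not tested with 100 required on all arrays, which leaves 0 precursors passing. It did not pass with no filter (log2 3.68), with values under 100 set to 100 (1.41), with the block (3.68) or with any array left out (3.27 to 4.08). It was above 0 in each setting that tested it, and its adjusted p lay between 0.0105 and 0.178. The 14 listed genes that passed became 0 with no filter or any array left out, 4 with the block and 9 without the probesets named above. Vip changed sign without fluoxetine pool 2 (-0.015) and without control pool 1 (-0.12 to 0.13 with each array left out), and Cckbr without control pool 2 (-0.72 to 0.11); neither passed. With 3 arrays the lone pool is assumed to vary like the others. Grp passed in 5 of 15 settings, Dsp in 5 of 15 and Abcc9 in 3 of 13, and Ecel1 lost its call with values under 100 set to 100 (0.31). Whether pools with the same number share more than that number is not known from the titles. Differences between pools correlated at 0.14 between the groups over tested probesets, and Ttr was higher in pool 1 of both groups. Quantile normalization and median centring changed no direction among the precursors tested. Signal under 100 limits Tac2, Adcyap1, Cort and Trh.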
